A study of Mus musculus with 13 samples.

Results

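The 10 genes described here encode the enzymes that make and remove the phosphoinositides PI4P and PI(4,5)P2, and were chosen by name out of the 35013 genes in the count table. They were the PI4-kinases Pi4k2a, Pi4k2b, Pi4ka and Pi4kb, the type I PIP5-kinases Pip5k1a, Pip5k1b and Pip5k1c, and the 5-phosphatases Synj1, Ocrl and Inpp5b. Gene positions are given in GRCm38 from GENCODE M21. All 10 passed the filter on low counts, which kept 16468 genes. RNA was read from the kidneys of female mice in 3 groups, Spns1 KO (n = 4), WT (n = 5) and FeO (n = 4). Every mouse carried Megalin3'Cre-Ert, a tamoxifen-inducible Cre driven by the megalin promoter of the proximal tubule, and 1 floxed Uprt allele, so that Cre switched on UPRT and nascent RNA of those cells took up 4-thiouracil before biotin capture and poly-A selection. The Spns1 KO mice were Spns1 flox/flox. The WT and FeO mice were Spns1 flox/+ in the study's methods, so that WT is a control with Cre and not an unmodified animal. In FeO, iron sucrose was injected at 12 mg a day on 3 days and the kidney was taken 1 week after, whereas the other groups received no iron. The labels give that dose as iron sucrose and the study's methods as elemental iron, so that the amount of iron is uncertain. Ages are not given in the sources used here, and the sources used here name littermates as WT but do not tie each library to an animal, so that the p-values measure the spread between these libraries. In such tagged tissue RNA, fewer cells of a type and less RNA per cell cannot be told apart.

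PI4-kinases add a phosphate to the 4-position of the inositol ring of phosphatidylinositol and give PI4P, the lipid that marks the Golgi and much of the late secretory pathway. Type I PIP5-kinases phosphorylate PI4P to PI(4,5)P2, the plasma membrane lipid to which clathrin adaptors bind when a coated pit forms. The 5-phosphatases take that phosphate off again as the vesicle uncoats, and the loss of OCRL in Lowe syndrome is known for low-molecular-weight proteinuria, a failure of proximal tubule endocytosis.

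Pi4k2b, Pip5k1a and Synj1 were called lower than in WT in both models, Spns1 KO and FeO, at the limits given below. The study had already named the same 3 genes as downregulated in its models from these data. Of all tested genes, 7.55% were called lower in Spns1 KO and 19.7% in FeO. Pi4ka, Pi4kb and Pip5k1b also lay below WT in both models, but were not called in both. After correction for transcript length and GC content only Pip5k1a was called in both, where 4.62% (Spns1 KO) and 12.9% (FeO) of all tested genes were called lower. The promoters of Pi4k2b, Pip5k1a and Synj1 are shown because these 3 were called lower in both comparisons, which share the WT libraries. Each window runs from 250 bases before to 50 bases after the RefSeq start in GRCm38.p6 and is read 5' to 3' on the gene's strand. Capitals mark the motifs that were searched on both strands, which were CACGTG (the E-box that lies within the CLEAR element of lysosomal genes), TATAAA (the TATA box), CCAAT (the CCAAT box) and GGGCGG (the GC box).
Pi4k2b, chr5:52741324-52741623, plus strand: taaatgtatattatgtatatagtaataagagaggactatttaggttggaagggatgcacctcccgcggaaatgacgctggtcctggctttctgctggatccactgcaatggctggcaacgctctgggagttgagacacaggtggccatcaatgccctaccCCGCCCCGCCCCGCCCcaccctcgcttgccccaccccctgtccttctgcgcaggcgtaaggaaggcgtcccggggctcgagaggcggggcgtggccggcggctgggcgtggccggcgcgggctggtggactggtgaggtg
Pip5k1a, chr3:95106881-95107180, minus strand: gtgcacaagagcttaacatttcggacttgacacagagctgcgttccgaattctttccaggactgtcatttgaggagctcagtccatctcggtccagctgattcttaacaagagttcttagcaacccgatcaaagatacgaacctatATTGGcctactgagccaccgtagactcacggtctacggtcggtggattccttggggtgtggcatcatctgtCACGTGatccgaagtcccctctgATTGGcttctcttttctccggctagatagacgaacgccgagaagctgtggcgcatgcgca
Synj1, chr16:91011259-91011558, minus strand: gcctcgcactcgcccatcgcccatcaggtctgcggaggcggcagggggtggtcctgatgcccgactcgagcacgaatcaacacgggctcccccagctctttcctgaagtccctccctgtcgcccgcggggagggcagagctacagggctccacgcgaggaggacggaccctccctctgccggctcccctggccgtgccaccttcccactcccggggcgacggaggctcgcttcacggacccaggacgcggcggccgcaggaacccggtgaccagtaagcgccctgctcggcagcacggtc

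The Pi4k2b window held 3 GC boxes, at -90, -85 and -80 from the start, each sharing 1 base with its neighbour, and 35.7% of the 32851 RefSeq windows held at least 1. The Pip5k1a window held 1 CACGTG at -33, a motif found in 7.15% of windows, and CCAAT boxes at -104 and -10, found in 37.4%. None of the motifs lay in the Synj1 window shown, and TATAAA, found in 13.6% of windows, lay in none of the 3. RefSeq lists another window for Synj1, chr16:91011046-91011345, that overlaps the one shown and holds 7 GC boxes between -157 and 28, so that the count for Synj1 depends on the start chosen. GC content was 62.7% for Pi4k2b, 51.3% for Pip5k1a and 71.3% for Synj1, against a median of 52.7%. A match is a description of letters and not a binding site. RefSeq windows were found for 9 of the 10 genes, all but Pip5k1b.

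The libraries held between 23068023 and 71296474 estimated counts, and the 10 genes between 142 and 11740 counts each. Levels are given as CPM, counts scaled to a common library size with TMM factors. A gene was called at an edgeR adjusted p under 0.05 and a log2 fold change beyond 0.5. The targeted gene Spns1 stood at 39.0, 44.5, 36.6 and 59.0 CPM in Spns1 KO libraries 1 to 4 and at 57.2, 61.4, 57.6, 39.2 and 62.9 CPM in WT libraries 1 to 5, and it was not called (log2 fold change -0.31, 95% interval -0.70 to 0.08, adjusted p = 0.225). The library labelled Spns1 KO 4 therefore lay inside the WT range and the library labelled WT 4 inside the Spns1 KO range. The counts cover the whole gene while the floxed allele loses exon 3, so that they check the labels only in part. Without both libraries Spns1 was called lower (-0.58, edgeR adjusted p = 0.0118). They were singled out by their Spns1 values, so that this call is no check of the labels. With all 13 libraries Spns1 was called lower after correction for transcript length and GC content (-0.53, edgeR adjusted p = 0.0249). Calls of the 10 genes and of the pathway lists, and shares within families, are also given without the libraries labelled Spns1 KO 4 and WT 4. Marker sums and the order of levels use all 13 libraries. Proximal tubule markers, Lrp2 (megalin) and Cubn (cubilin) among them, summed to 7202 to 8312 CPM in Spns1 KO, 3196 to 4509 in WT and 1993 to 4592 in FeO, with 10 of 12 called higher in Spns1 KO and 2 higher and 1 lower in FeO. In this sum every library labelled Spns1 KO, number 4 included, lay above every library labelled WT, number 4 included. What the sum says about the labels was not tested. Lrp2, whose promoter drives the Cre, ranged from 747 to 1387 CPM in Spns1 KO, 548 to 755 in WT and 389 to 632 in FeO. Markers of other cells were read too, and none of the listed markers was at 0 in every library. Leukocyte markers summed to 190 to 241 CPM in Spns1 KO (1 of 8 called higher), 80.2 to 101 in WT and 119 to 275 in FeO (6 of 8 higher), collecting duct markers to 339 to 536, 382 to 658 and 570 to 1645 (3 higher and 1 lower of 8, then 6 higher), and red blood cell markers to 51.8 to 175, 9.40 to 36.5 and 26.3 to 238 (5 and 4 of 5 higher). Of the other lists, podocyte markers had 2 and 3 of 5 called higher in Spns1 KO and FeO, thick limb markers 1 and 2 of 4, distal convoluted tubule markers 1 and 0 of 3 with 1 lower in Spns1 KO, endothelial markers 2 and 2 of 6 with 1 lower in FeO, and fibroblast markers 3 and 0 of 5. The thick limb markers summed to 2180 to 2981 CPM in Spns1 KO, 1300 to 2767 in WT and 1481 to 3803 in FeO. Those of the distal convoluted tubule summed to 855 to 1934, 305 to 1500 and 456 to 1411 CPM. In the same order of groups, endothelial markers summed to 289 to 331, 211 to 269 and 197 to 359 CPM. Fibroblast markers summed to 118 to 163, 60.9 to 97.9 and 52.7 to 126 CPM, and podocyte markers to 234 to 297, 164 to 293 and 282 to 651 CPM. Every Spns1 KO library thus also lay above every WT library in the endothelial and fibroblast sums. The part of cell makeup in the differences that follow was not tested.

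In Spns1 KO, 3 of the 10 genes were called lower and none higher, where 7.55% of all tested genes were called lower and 14% higher. In FeO, 4 of the 10 were called lower and none higher, where 19.7% were called lower and 22.4% higher. The study itself names Pi4k2b, Pip5k1a and Synj1 as downregulated in its models, from these same data. A count that includes them is thus no independent test against the shares of all genes. The median log2 fold change of the 10 was -0.29 in Spns1 KO and -0.38 in FeO, beside -0.05 and -0.01 over all tested genes. In each comparison 8 of the 10 lay below 0, where 53.2% (Spns1 KO) and 50.5% (FeO) of all tested genes did. Without the libraries labelled Spns1 KO 4 and WT 4, 3 were called lower in each comparison, Pi4k2b, Pip5k1a and Synj1, where 15.5% and 20.6% of all tested genes were called lower. The uncalled PI4-kinases then lay, in Spns1 KO and FeO, at -0.25 and 0.14 (Pi4k2a), -0.0013 and -0.41 (Pi4ka) and -0.34 and -0.23 (Pi4kb). In the same order, the other uncalled members lay at 0.09 and -0.27 (Pip5k1b), 0.18 and -0.13 (Pip5k1c), -0.13 and 0.17 (Ocrl) and 0.06 and -0.36 (Inpp5b). Changes also went with transcript length over all genes: tested genes with transcripts above 4587 bases lay at a median of -0.33 (Spns1 KO) and -0.49 (FeO) on the log2 scale, and those under 1919 bases at 0.37 and 0.60. The 10 genes' transcripts had a median length of 3750.5 bases against 3061 for all tested genes. After correction of each library for a smooth dependence on length and GC content, the called genes came to 1 in Spns1 KO (Pip5k1a) and 2 in FeO (Pip5k1a and Synj1), where 4.62% and 12.9% of all tested genes were called lower. Between Spns1 KO and FeO themselves none of the 10 was called by edgeR, where 14.9% of tested genes were. In that comparison 1 of the 10 (Pi4k2a) had an unadjusted edgeR p under 0.05, as did 5420 of the 16468 tested genes. DESeq2 also called none there, and against WT it called 3 lower in each model and none higher. With all 13 libraries and the counts as deposited, no member lay above WT at an unadjusted p under 0.05 by either tool.

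**Figure D1:**
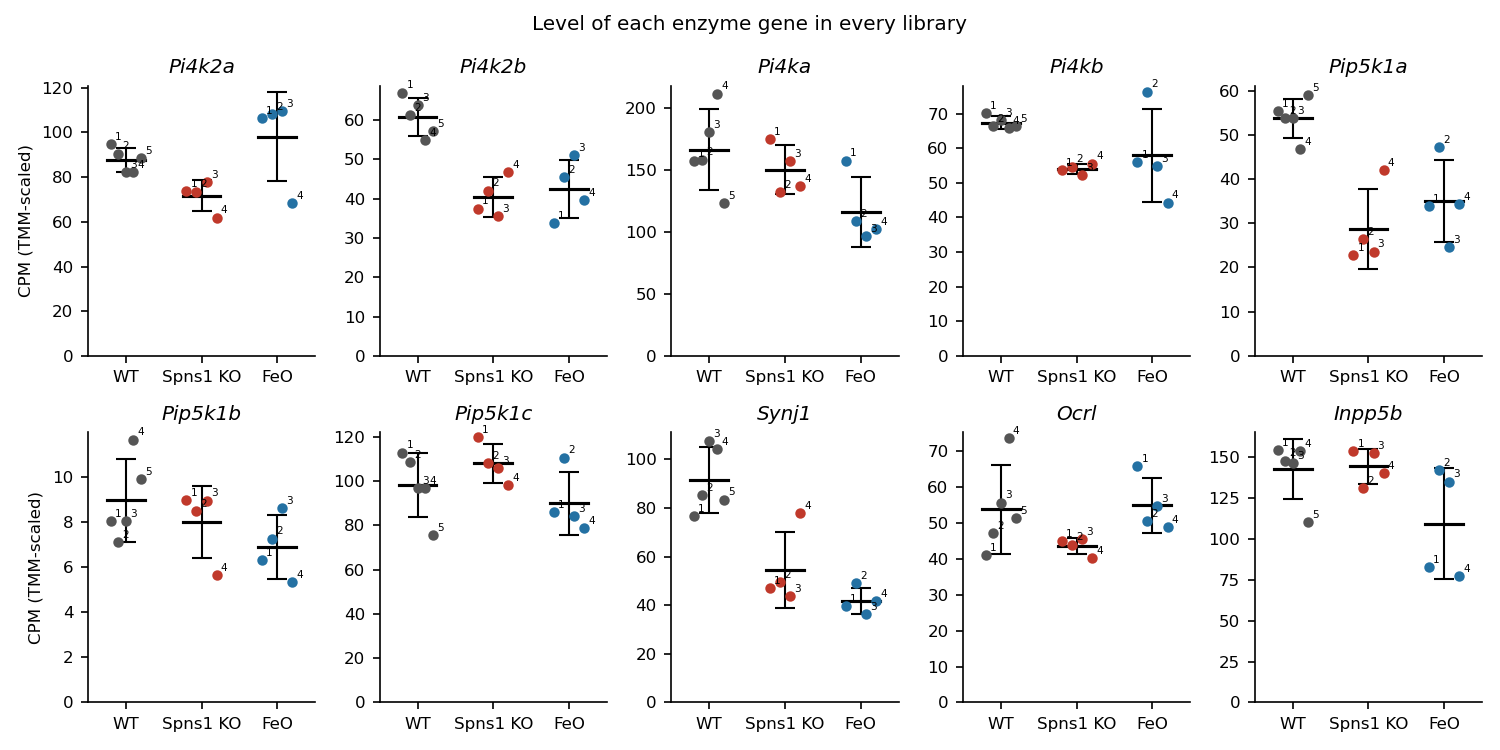
Level of each of the 10 genes in CPM (y axis, from 0) in the WT, Spns1 KO and FeO libraries (x axis); points are libraries with their replicate number, the thick line is the group mean and the bar 1 SD either way. Pi4k2b sits at 54.8 CPM or more in every WT library and at 51.0 or less in every other library, and Synj1 in the library labelled Spns1 KO 4 (77.8) stands above the other Spns1 KO libraries.

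Among the PI4-kinases, Pi4k2b was the gene called in both models. It lies at chr5:52741574-52769340, plus strand, and encodes the type II beta enzyme, found in the cytosol and on endosomal membranes. Its level was 37.5, 42.1, 35.5 and 46.7 CPM in Spns1 KO libraries 1 to 4, 67.0, 61.3, 63.7, 54.8 and 57.3 CPM in WT libraries 1 to 5, and 33.8, 45.5, 51.0 and 39.7 CPM in FeO libraries 1 to 4. Every Spns1 KO and every FeO library thus lay below every WT library. The level fell by 33.5% in Spns1 KO (log2 fold change -0.59, SE 0.14, edgeR adjusted p = 0.00933) and by 30.1% in FeO (-0.52, SE 0.14, adjusted p = 0.00944). Both values sat near the fold limit. With the length and GC trend removed they were -0.495 (adjusted p = 0.0217) and -0.46 (adjusted p = 0.0172), short of that limit, while the libraries still did not overlap. The FeO call was also lost without WT 1 (-0.48), WT 3 (-0.48), FeO 1 (-0.40) or FeO 4 (-0.46), and without the filter on low counts (-0.45), always at an edgeR adjusted p under 0.05. Without the libraries labelled Spns1 KO 4 and WT 4 both calls held, at -0.70 and -0.55.

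Pi4k2a (chr19:42090470-42122087, plus strand) encodes the type II alpha enzyme of the trans-Golgi network, endosomes and lysosomes. It stood at 73.7, 73.5, 77.9 and 61.9 CPM in Spns1 KO, at 94.7, 90.6, 82.3, 82.1 and 88.5 CPM in WT, and at 106.4, 108.1, 109.5 and 68.3 CPM in FeO. Every Spns1 KO library lay below every WT library, and 3 of the 4 FeO libraries lay above all WT libraries while FeO 4 lay below them. Neither difference from WT was called, at -0.29 (95% interval -0.61 to 0.03, edgeR adjusted p = 0.177) and 0.16 (-0.16 to 0.48, adjusted p = 0.386). Spns1 KO lay below FeO by a log2 fold change of -0.45 (-0.79 to -0.11, edgeR adjusted p = 0.0647). That difference was called without FeO 4 (-0.60) and with the trend removed (-0.52, adjusted p = 0.0418, where 9.8% of tested genes were called lower), and was -0.39 without the libraries labelled Spns1 KO 4 and WT 4.

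Type III PI4-kinases are Pi4ka (chr16:17280351-17406314, minus strand), which supplies PI4P to the plasma membrane, and Pi4kb (chr3:94974731-95006843, plus strand), which acts at the Golgi. Pi4ka was at 175.0, 132.3, 157.6 and 137.2 CPM in Spns1 KO, 157.3, 158.6, 181.1, 211.9 and 123.2 CPM in WT, and 157.8, 108.8, 96.6 and 102.4 CPM in FeO. FeO 2, 3 and 4 lay below every WT library and FeO 1 lay within them. Its fall in FeO was called (-0.52, SE 0.19, edgeR adjusted p = 0.0353), and the value in Spns1 KO was -0.15 (-0.54 to 0.25, adjusted p = 0.594). Leaving out any of 6 libraries ended the FeO call: WT 2 (-0.53), WT 3 (-0.47), WT 4 (-0.40), FeO 2 (-0.46), FeO 3 (-0.44) and FeO 4 (-0.43). It was lost too without the libraries labelled Spns1 KO 4 and WT 4 (-0.41), with DESeq2 (-0.50, adjusted p = 0.0317) and without the filter on low counts (-0.44). At 6630 bases its transcript is long, and with the trend removed the FeO value was -0.04 (-0.40 to 0.33), and the Spns1 KO value 0.15.

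Pi4kb was tight within groups, at 53.7, 54.7, 52.2 and 55.6 CPM in Spns1 KO and 70.2, 66.4, 68.1, 65.7 and 66.4 CPM in WT, and it spread over 56.1, 76.3, 54.8 and 44.3 CPM in FeO. The Spns1 KO libraries did not overlap with WT and the FeO libraries lay on either side. The log2 fold changes were -0.32 (-0.62 to -0.02, edgeR adjusted p = 0.116) and -0.22 (-0.52 to 0.08, adjusted p = 0.217), neither called. These values are uncertain, since 18.5% of the 31-base sequences of its transcripts also occur in other genes, and Gm15265, Zfp687 and A730011C13Rik overlap its exons.

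The PIP5-kinase with a call was Pip5k1a (chr3:95058530-95106930, minus strand), the type I alpha enzyme. It was at 22.9, 26.4, 23.6 and 42.1 CPM in Spns1 KO libraries 1 to 4, at 55.3, 53.8, 53.8, 46.8 and 59.1 CPM in WT libraries 1 to 5, and at 33.9, 47.2, 24.7 and 34.3 CPM in FeO libraries 1 to 4. All Spns1 KO libraries lay below all WT libraries, and of the FeO libraries FeO 2 overlapped with WT 4. The gene fell by 46.6% in Spns1 KO (-0.90, SE 0.20, edgeR adjusted p = 0.00627) and by 34.9% in FeO (-0.62, SE 0.20, adjusted p = 0.0222). Both calls held with the trend removed, at -0.80 (adjusted p = 0.0113) and -0.52 (adjusted p = 0.0404). In Spns1 KO the call held in all 13 fits that left out 1 library (-1.15 to -0.81), and without the libraries labelled Spns1 KO 4 and WT 4 the value was -1.19 (adjusted p = 0.000587). In FeO it was lost without WT 5 (-0.56, edgeR adjusted p = 0.053), FeO 1 (-0.58, 0.0617), FeO 3 (-0.48, 0.0741) or FeO 4 (-0.58, 0.0554). The difference between the models was -0.29 (-0.74 to 0.16), not called.

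Pip5k1c (chr10:81292963-81319973, plus strand), the gamma enzyme that binds talin and the clathrin adaptor AP2, read 119.7, 108.1, 105.9 and 98.3 CPM in Spns1 KO, 112.9, 108.4, 96.9, 97.0 and 75.5 CPM in WT, and 86.1, 110.6, 84.3 and 78.6 CPM in FeO. The groups overlapped, and the log2 fold changes were 0.14 (-0.18 to 0.46, edgeR adjusted p = 0.521) and -0.13 (-0.45 to 0.19, adjusted p = 0.505). Pip5k1b (chr19:24294794-24555872, minus strand), the beta enzyme and the least abundant of the 10, read 9.0, 8.5, 9.0 and 5.6 CPM in Spns1 KO, 8.1, 7.1, 8.0, 11.7 and 9.9 CPM in WT, and 6.3, 7.3, 8.6 and 5.3 CPM in FeO. It too overlapped between groups, at -0.16 (-0.60 to 0.28, edgeR adjusted p = 0.599) and -0.38 (-0.82 to 0.07, adjusted p = 0.149).

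The phosphatase with a call was Synj1 (chr16:90936092-91011308, minus strand). It encodes synaptojanin 1, which strips phosphates from PI(4,5)P2 as clathrin vesicles lose their coat. Its level was 46.9, 49.4, 43.8 and 77.8 CPM in Spns1 KO libraries 1 to 4, 76.6, 85.3, 107.5, 104.2 and 83.5 CPM in WT libraries 1 to 5, and 39.6, 49.1, 36.4 and 41.7 CPM in FeO libraries 1 to 4. All FeO libraries lay below all WT libraries, and in Spns1 KO only the library labelled Spns1 KO 4 reached the WT range. Synj1 fell by 54.4% in FeO (-1.13, SE 0.18, edgeR adjusted p = 0.000552) and by 40.4% in Spns1 KO (-0.75, SE 0.18, adjusted p = 0.00926). Both calls held in all 13 fits that left out 1 library, at -1.20 to -1.05 and -0.97 to -0.66. Without the libraries labelled Spns1 KO 4 and WT 4 they were -1.08 and -0.92. Synj1 has the longest transcript of the 10, 7090 bases, and with the trend removed the FeO value was -0.57 (-0.84 to -0.30, edgeR adjusted p = 0.00513), still called, while the Spns1 KO value was -0.41 (-0.68 to -0.14, adjusted p = 0.0385), short of the fold limit. Spns1 KO and FeO differed by 0.38 (-0.02 to 0.79, adjusted p = 0.17), not called.

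Ocrl (chrX:47912387-47965868, plus strand), the Lowe syndrome gene, read 44.8, 44.0, 45.4 and 40.3 CPM in Spns1 KO, 41.1, 47.1, 55.7, 73.5 and 51.3 CPM in WT, and 65.8, 50.4, 54.7 and 48.9 CPM in FeO. Every Spns1 KO library lay below every FeO library, and WT ran across both. No comparison was called, at -0.30 in Spns1 KO (-0.64 to 0.04, edgeR adjusted p = 0.187), 0.03 in FeO (-0.31 to 0.37, adjusted p = 0.882) and -0.33 between the models (-0.69 to 0.03, adjusted p = 0.184). The library labelled WT 4 was the highest, and without it and the library labelled Spns1 KO 4 the values against WT were -0.13 and 0.17. With the trend removed the FeO value was 0.43 (0.13 to 0.74, edgeR adjusted p = 0.0278), below the fold limit and with WT 4 inside the FeO range.

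Inpp5b (chr4:124741850-124801511, plus strand), the close relative of Ocrl that acts on the same lipid, read 153.7, 130.9, 152.4 and 140.3 CPM in Spns1 KO, 154.1, 147.9, 146.5, 153.7 and 110.3 CPM in WT, and 82.7, 142.0, 135.1 and 77.2 CPM in FeO. FeO fell into 2 low and 2 higher libraries. The log2 fold change was 0.02 in Spns1 KO (-0.38 to 0.42, edgeR adjusted p = 0.953) and -0.38 in FeO (-0.79 to 0.02, adjusted p = 0.112). The FeO difference was called without FeO 2 (-0.52).

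**Figure D2:**
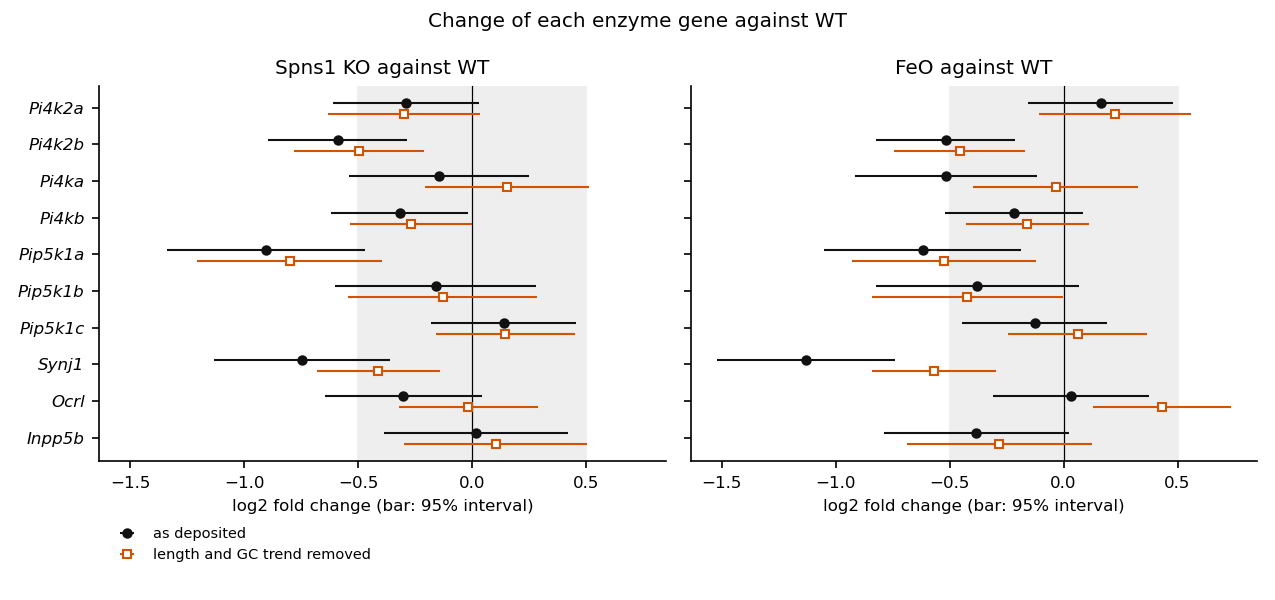
Log2 fold change (x axis) of each of the 10 genes (y axis) in Spns1 KO against WT (left) and FeO against WT (right), with 95% intervals, from the counts as deposited (filled circles) and after correction for transcript length and GC content (open squares); grey marks log2 fold changes within 0.5. Pip5k1a stays beyond the grey band on the left in both forms (-0.90 and -0.80), while Pi4ka in FeO goes from -0.52 to -0.04.

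The plot of fits without 1 library shows how far each call rested on single libraries. The 3 calls in Spns1 KO and the Synj1 call in FeO held in all of them.

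**Figure D3:**
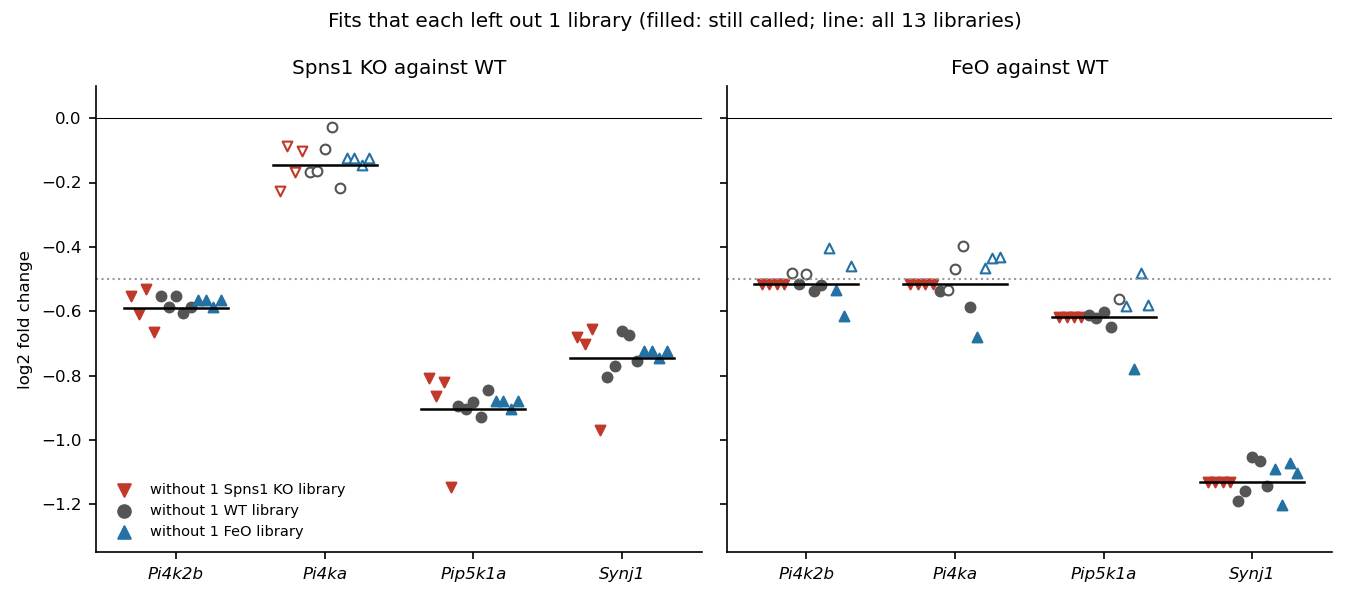
Log2 fold change (y axis) of the 4 genes called in either comparison with WT (x axis) in 13 fits that each left out 1 library; triangles and circles give the group of the library left out, filled symbols are fits in which the gene was still called, the line is the value with all 13 libraries and the dotted line the fold limit of -0.5. Pi4ka in FeO was lost in 6 of 13 fits, and Pip5k1a in Spns1 KO went to -1.15 without the library labelled Spns1 KO 4.

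Between genes, levels were compared per kilobase of the longest coding transcript. In WT the order of mean CPM per kb was Inpp5b (37.4), Pi4ka (25.1), Pi4k2a (24.3), Pip5k1c (22.7), Pi4k2b (19.4), Pi4kb (18.2), Pip5k1a (14.7), Synj1 (12.9), Ocrl (10.2) and Pip5k1b (3.48). Among neighbours in that order, the ranges over the WT libraries were apart only between Pi4kb and Pip5k1a and between Ocrl and Pip5k1b. In Spns1 KO, Inpp5b (37.9 CPM per kb) stood clear of Pip5k1c (24.99), and Pip5k1a (7.84) and Synj1 (7.68) came below Ocrl (8.30), with ranges that overlapped. In FeO the only neighbours with ranges apart were Synj1 (5.88) and Pip5k1b (2.68). Inpp5b led and Pip5k1b closed the order in all 3 groups. The order depends on the transcript chosen, and other transcripts of Inpp5b are much shorter.

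Within the PIP5-kinases, Pip5k1a gave a smaller share of the family in both models. Shares are of summed CPM per kb and do not depend on how libraries are scaled to each other. The length and GC trend was not removed from them. Pip5k1a made up 36.1% ± 4.20 (SD, n = 5) in WT, with libraries from 32.2% to 43.1%, 21.8% ± 6.66 (n = 4) in Spns1 KO, from 16.7% to 31.6%, and 28.7% ± 4.08 (n = 4) in FeO, from 22.8% to 31.6%. Every Spns1 KO and every FeO library lay below every WT library. Pip5k1c made up 69.5% ± 4.96 in Spns1 KO and 63.1% ± 1.99 in FeO, against 55.3% ± 5.07 in WT, with every Spns1 KO and FeO library above the WT range. Pip5k1b held 8.61%, 8.69% and 8.24%, with overlap. Summed over the 3 genes, the level was 40.9 ± 2.65 CPM per kb in WT, 35.9 ± 1.28 for the Spns1 KO libraries and 33.0 ± 5.58 for FeO, again as mean ± SD.

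For the type II PI4-kinases, Pi4k2b made up 39.3% ± 5.22 in Spns1 KO and 33.5% ± 5.52 in FeO, against 44.3% ± 1.72 in WT. All FeO libraries (26.7% to 40.1%) lay below all WT libraries (42.6% to 47.1%), and Spns1 KO (34.3% to 46.4%) overlapped with WT. Of the 5-phosphatases, Synj1 made up 21.3% ± 2.23 in WT (18.3% to 23.6%), 14.2% ± 3.87 in Spns1 KO (11.3% to 19.8%) and 13.4% ± 2.70 in FeO (10.1% to 16.6%), and FeO alone was apart from WT. Ocrl held 16.9%, 15.4% and 24.0%, and Inpp5b 61.8%, 70.3% and 62.6%, all with overlap. Of the type III pair, Pi4ka made up 60.6% in Spns1 KO and 52.8% in FeO, against 57.5% in WT, also with overlap. These shares are descriptions of the same counts as the fold changes. With the median instead of the longest coding transcript the same shares were apart from WT. For the type II and type III pairs another length cannot change that. Another length rescales a gene alike in every library, so that this does not address the length and GC trend between libraries. Without the libraries labelled Spns1 KO 4 and WT 4, the Spns1 KO means were 18.6% for Pip5k1a, 36.9% for Pi4k2b, 12.4% for Synj1 and 71.6% for Inpp5b, and the last 3 then also did not overlap with WT.

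**Figure D4:**
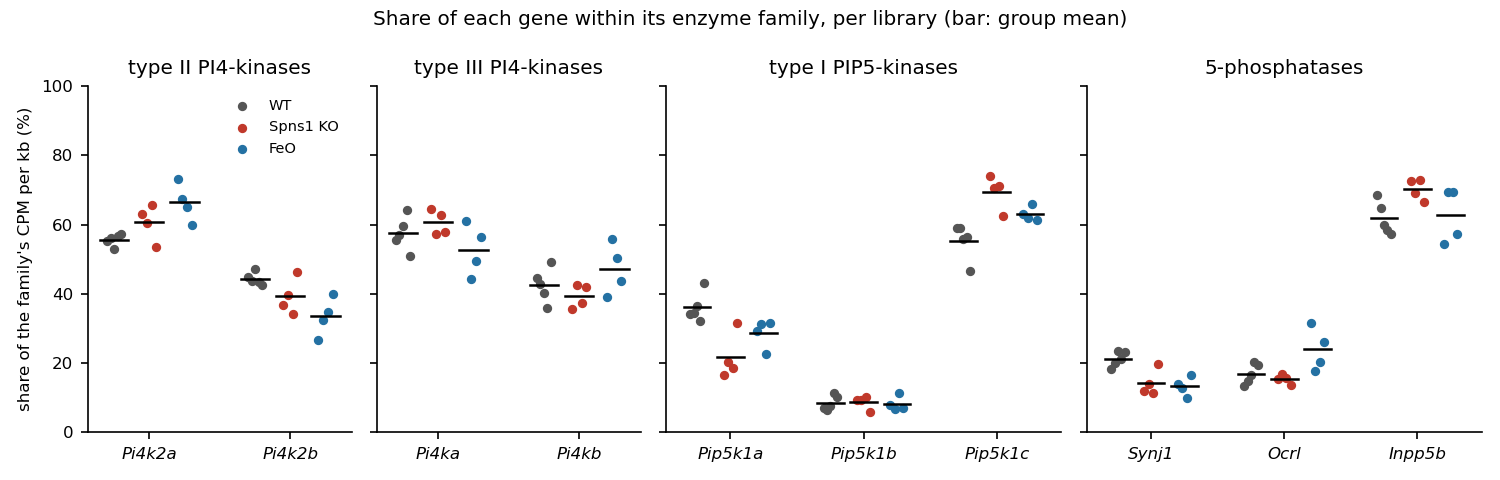
Share of each gene in its family's summed CPM per kilobase (y axis, 0 to 100%) for the type II and type III PI4-kinases, the type I PIP5-kinases and the 5-phosphatases; points are libraries coloured by group and the bars are group means. Pip5k1a averages 21.8% of the PIP5-kinases in Spns1 KO and 28.7% in FeO, below the WT mean of 36.1%, and no library of either model reaches the WT range.

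Levels were also set against each other across libraries. Pi4k2b, Pip5k1a and Synj1 are named here because they were called lower in both models. A high r over all libraries partly restates that choice. Pearson's r of log2 CPM over the 13 libraries was 0.79 for Pip5k1a and Synj1, 0.78 for Pi4k2b and Synj1 and 0.77 for Pi4k2b and Pip5k1a, and 0.85, 0.82 and 0.80 with the trend removed. These libraries share their 3 groups, and with each group's mean taken out r was 0.70, 0.28 and 0.25, and 0.58, 0.06 and -0.18 without the libraries labelled Spns1 KO 4 and WT 4 as well. Out of 9625 other genes with a mean of at least 10 CPM, those nearest to Synj1 were Dop1a (r = 0.99) and Notch2 (0.99), whose transcripts are 9187 and 10500 bases long. Those nearest to Pip5k1a were Dclre1b (0.97) and Kdm5b (0.97), and to Pi4k2b Polr1f (0.98) and Fyb2 (0.97). Nearest to Pi4ka were Arhgef12 (0.96) and Pdpr (0.95), to Pi4kb Upf1 (0.93) and Urgcp (0.93), and to Pi4k2a Actr1a (0.98) and Rbm7 (0.94). Ocrl ran nearest to Stam2 (0.95) and Bag4 (0.95), Inpp5b to Hnf4a (0.95), the transcription factor of proximal tubule and liver epithelium, and Vav2 (0.94), Pip5k1c to Crebzf (0.89) and Ankrd13b (0.89), and Pip5k1b to Exoc6 (0.84) and Pcyt1a (0.83). All are over 13 libraries that share groups, and depth differs between them.

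The other genes of the pathway were read from 5 lists of 84 genes, of which 81 were tested. In Spns1 KO 6 were called higher and 6 lower, and in FeO 10 higher and 11 lower, in the counts as deposited a share of the 81 at or below that of all tested genes in each direction. The median log2 fold change was -0.10 in both comparisons, and 0.04 and 0.17 with the trend removed. The trend removed also changed the counts, to 4 higher and 8 lower in Spns1 KO, where 10.7% of all tested genes were called higher and 4.62% lower, and to 14 higher and 5 lower in FeO, where 20.5% were higher and 12.9% lower. Without the libraries labelled Spns1 KO 4 and WT 4, 12 were called higher and 7 lower in Spns1 KO, where 18% and 15.5% of all tested genes were, and 11 higher and 14 lower in FeO, where 22.9% and 20.6% were.

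Other kinases and phosphatases of PI4P and PI(4,5)P2 gave no call among 13 in Spns1 KO by edgeR or DESeq2. There 1 of the 13 had an unadjusted edgeR p under 0.05, as did 6109 of the 16468 tested genes. In FeO, where 22.4% of all tested genes were called higher, 2 of the 13 were. These were Inpp5j, a 5-phosphatase (WT 35.3 ± 4.81, Spns1 KO 39.1 ± 4.69, FeO 51.0 ± 15.1 CPM; FeO log2 fold change 0.53, SE 0.18, edgeR adjusted p = 0.0243), and Pip4p2, a 4-phosphatase of PI(4,5)P2 on endosomes and lysosomes (WT 31.7 ± 3.65, Spns1 KO 37.6 ± 8.89, FeO 48.5 ± 9.49 CPM; 0.61, SE 0.18, adjusted p = 0.0131). In Spns1 KO their log2 fold changes were 0.15 and 0.24. The same genes were called with the trend removed and without the libraries labelled Spns1 KO 4 and WT 4.

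Of 18 partners that place or bind the enzymes, 1 was higher (Tmem150a) and 1 lower (Appl1) in Spns1 KO, and 1 higher (Arf1) and 4 lower (Fam126a, Fam126b, Itsn1 and Itsn2) in FeO. Over all tested genes 14% were called higher and 7.55% lower in Spns1 KO, and 22.4% and 19.7% in FeO. Fam126a, part of the complex that holds PI4KA at the plasma membrane, had means of 39.0 ± 5.99 CPM in WT, 32.8 ± 3.25 CPM for the Spns1 KO libraries and 18.3 ± 6.69 CPM for FeO. Its log2 fold change was -1.09 in FeO (SE 0.22, edgeR adjusted p = 0.00133) and -0.25 in Spns1 KO, and Spns1 KO lay above FeO by 0.84 (adjusted p = 0.0221). It was called in FeO with the trend removed as well (-0.66). Itsn1 and Itsn2, endocytic scaffolds that bind synaptojanin and dynamin, were at -0.61 and -0.98 in FeO (edgeR adjusted p = 0.00226 and 0.000644) and -0.10 and -0.37 in Spns1 KO. With the trend removed the FeO values were 0.11 and -0.49, neither called, and Fam126b went from -0.90 to 0.07. In Spns1 KO the trend removed ended the calls of Tmem150a (1.00, then 0.63) and Appl1 (-0.52, then -0.08), and Arf6 (-0.67) and Pheta1 (-0.65) were called lower instead, while in FeO Tmem150a (-0.65) and Arf6 (-0.75) became calls. In fits without the libraries labelled Spns1 KO 4 and WT 4, Appl1 was not called in Spns1 KO (-0.32) and Arf1 was called higher (0.66).

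Among 18 genes of phosphatidylinositol supply and PI4P transfer or binding, 2 were lower in Spns1 KO (Osbpl10 and Osbpl11), where 7.55% of all tested genes were. In FeO 2 were higher (Cdipt and Pitpna) and 4 lower (Pitpnc1, Pitpnm2, Osbpl11 and Plekha8), where 22.4% and 19.7% of all tested genes were. Cdipt, the synthase of phosphatidylinositol, went from 30.3 ± 3.03 CPM in WT to 67.0 ± 15.8 in FeO, with 42.1 ± 10.6 in Spns1 KO. It rose in FeO (1.14, SE 0.19, edgeR adjusted p = 0.000584) and was 0.47 in Spns1 KO (adjusted p = 0.0804), and the models differed by -0.67 (adjusted p = 0.0352). Osbpl11, an oxysterol-binding protein relative, fell in both, from 79.5 ± 10.4 CPM in WT to 44.5 ± 6.77 in Spns1 KO (-0.84, edgeR adjusted p = 0.00509) and 37.0 ± 10.8 in FeO (-1.11, adjusted p = 0.000617). Pitpna, which carries phosphatidylinositol between membranes, was 0.55 in FeO (edgeR adjusted p = 0.00955) and 0.08 in Spns1 KO. With the trend removed Pitpnc1 (-0.08), Pitpnm2 (-0.13) and Plekha8 (-0.06) were not called in FeO, Golph3 (0.52) and Osbpl10 (-0.56) were, and the list came to 3 higher and 2 lower there. With the libraries labelled Spns1 KO 4 and WT 4 left out, it came to 1 higher (Cdipt, 0.65) and 2 lower in Spns1 KO and 4 higher and 6 lower in FeO.

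The endocytic coat had a median log2 fold change of 0.20 (Spns1 KO) and 0.24 (FeO) over 20 genes. In Spns1 KO 5 were higher (Ap2m1, Ap2s1, Dab2, Dnm1 and Clta) and 2 lower (Epn2 and Epn3), and in FeO 5 were higher (Ap2m1, Ap2s1, Dnm1, Clta and Cltb) and 1 lower (Epn2), where 14% and 22.4% of all tested genes were called higher. Ap2m1, the AP2 subunit that binds PI(4,5)P2 and cargo, rose from 109.8 ± 6.87 CPM in WT to 162 ± 34.0 in Spns1 KO (0.57, SE 0.18, edgeR adjusted p = 0.0328) and 219 ± 51.6 in FeO (1.00, SE 0.18, adjusted p = 0.000783). Ap2s1, the small AP2 subunit, rose from 12.9 ± 1.62 CPM in WT to 21.8 ± 3.76 in Spns1 KO (0.75, adjusted p = 0.00476) and 33.8 ± 5.16 in FeO (1.38, edgeR adjusted p = 0.000313), and with the trend removed its Spns1 KO value was 0.13, not called. Clta, clathrin light chain A, was 0.85 in Spns1 KO and 1.13 in FeO (edgeR adjusted p = 0.00711 and 0.000717), and 0.53 in Spns1 KO with the trend removed, not called. The list then came to 3 higher and 1 lower in Spns1 KO and 7 higher in FeO, at medians of 0.22 and 0.40. Leaving out the libraries labelled Spns1 KO 4 and WT 4 gave 7 higher and 3 lower in Spns1 KO and 4 higher and 1 lower in FeO.

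Of 12 phospholipases C, which cleave PI(4,5)P2, 1 was lower in Spns1 KO (Plch2) and 2 in FeO (Plcb1 and Plcg1). Over all tested genes 7.55% and 19.7% were called lower. Plcg1, the growth-factor-receptor isoform, had 136 ± 16.5 CPM in WT, 79.8 ± 14.3 in FeO and 129 ± 5.86 in Spns1 KO with a log2 fold change in FeO of -0.77 (SE 0.15, edgeR adjusted p = 0.00128), and Spns1 KO lay above FeO by 0.69 (adjusted p = 0.0114). Plcb1 was -0.80 in FeO (edgeR adjusted p = 0.00176) and -0.38 in Spns1 KO. Plch2 was low, at 4.48 ± 1.10 CPM in WT and 1.98 ± 0.77 in Spns1 KO (-1.17, edgeR adjusted p = 0.0233). With the trend removed Plcg1 and Plcb1 were at -0.48 and -0.23 in FeO, neither called, while Plce1 was called higher there (0.97) and the list came to 1 higher and 3 lower in Spns1 KO. Leaving out the libraries labelled Spns1 KO 4 and WT 4 gave 2 higher and 2 lower in Spns1 KO and 3 lower in FeO.

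**Figure D5:**
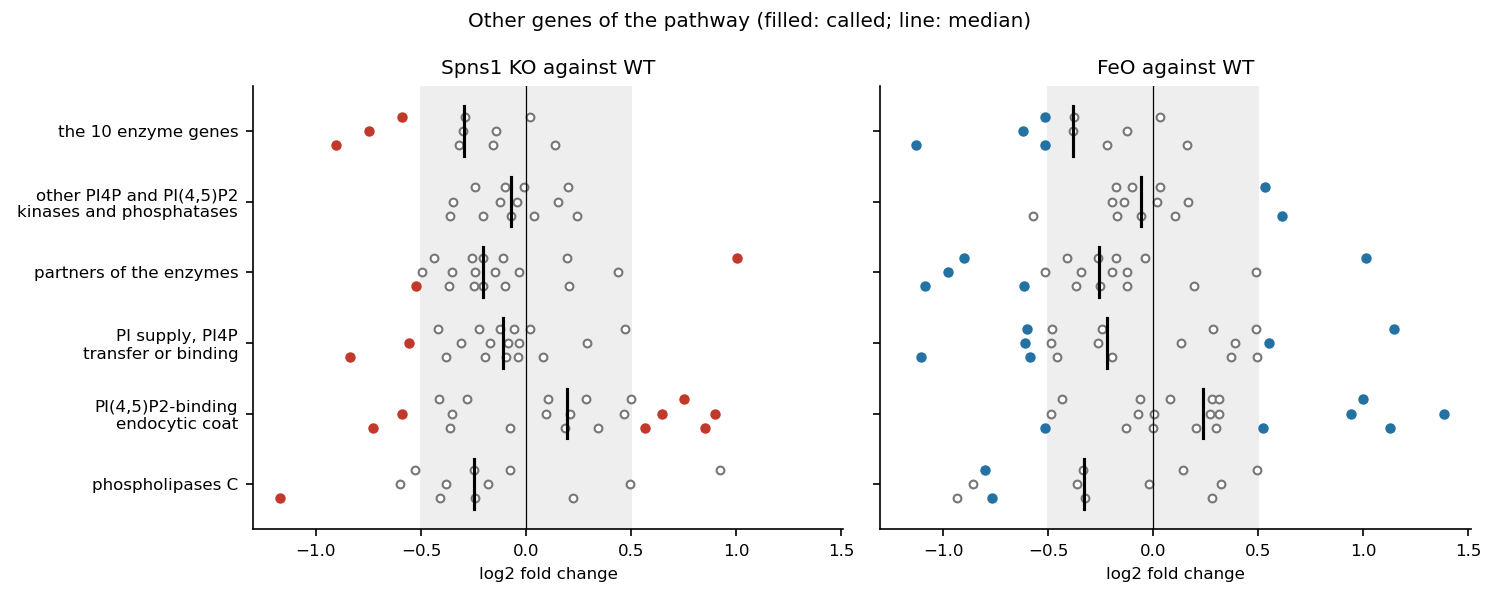
Log2 fold change (x axis) of the 10 enzyme genes and of the tested genes of each pathway list (y axis) in Spns1 KO against WT (left) and FeO against WT (right); points are genes, filled where called, the vertical line is the list's median and grey marks log2 fold changes within 0.5. The 10 enzyme genes have no call above 0, and the 20 endocytic coat genes have 5 in each comparison. Of all tested genes, 14% (Spns1 KO) and 22.4% (FeO) were called higher.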

How the data were processed

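Per the labels and methods, nascent RNA tagged with 4-thiouracil was captured, poly-A selected and sequenced as paired ends in 13 libraries (4 Spns1 KO, 5 WT, 4 FeO). The authors deposited 1 table of estimated counts per gene, not normalized. The submitters' processing notes name bcl2fastq 2.19, kallisto 0.44.0, DESeq2 and GRCm38, whereas the study's methods name an aligner and a read counter, and values with fractions fit the former. Estimated counts assign shared reads by model, so that overlapping genes can trade reads.

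Counts were rounded and fitted over all 13 libraries with edgeR 4.0.16 in R 4.3.3 (TMM, filterByExpr, quasi-likelihood test, two-sided, Benjamini-Hochberg over 16468 genes). Intervals are 95% and unadjusted. Library totals ran from 23068023 to 71296474, and 626 counts or more lay behind every value of a member other than Pip5k1b (142 or more). Lengths and GC content came from GENCODE M21, for 98.3% of tested genes. The trend used natural splines with 5 degrees of freedom, and log2 CPM a prior count of 2. Alternatives were DESeq2 1.42.0, its size factors, no filter, 2-group fits, the replicate number as a block, the trend removed and each library left out, and, chosen after seeing the data, the libraries labelled Spns1 KO 4 and WT 4 left out and the median transcript length. The test was checked on simulated counts. Members and lists were chosen with earlier results of these data known, among them the study's own naming of Pi4k2b, Pip5k1a and Synj1 as downregulated. Named were all 10 members, up to 3 genes a list with the smallest adjusted p among those called against WT, and the 2 genes most like each member. Appl1, Arf1, Tmem150a, Fam126b, Dab2, Dnm1, Cltb, Epn2, Epn3, Osbpl10, Pitpnc1, Pitpnm2, Plekha8, Arf6, Pheta1, Golph3 and Plce1 were named after their values were seen.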

Additional observations from a re-analysis of the deposited data

Results flagged for a closer look

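In 4 of the 30 sets of libraries checked (10 genes in 3 groups), 1 library stood apart from the others of its group, and chance alone marks about 1 in 20 such sets. Pi4k2a was at 68.3 CPM in FeO 4, where the other FeO libraries ran from 106.4 to 109.5. Synj1 was at 77.8 CPM in the library labelled Spns1 KO 4, against 43.8 to 49.4 in the others, and Pip5k1b was at 5.64 CPM in the same library, against 8.49 to 8.99. Inpp5b was at 110.3 CPM in WT 5, where the other WT libraries ran from 146.5 to 154.1. Spns1 itself was higher in the library labelled Spns1 KO 4 (59.0 CPM) than in the other Spns1 KO libraries. Whether a shared cause lies behind the values of that library was not tested.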

How the results depend on the processing

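The calls of Pi4k2b, Pip5k1a and Synj1 in Spns1 KO were kept by DESeq2, its size factors, no filter, the 2-group fit, the replicate block and all 13 fits without 1 library. After correction for length and GC content the members called came to 1 in Spns1 KO, 2 in FeO and 1 between the models (Pi4k2a), and no filter gave 2 in FeO. Signs turned with the trend removed for Pi4ka in Spns1 KO (0.15) and Pip5k1c in FeO (0.061), and without the libraries labelled Spns1 KO 4 and WT 4 for Pip5k1b in Spns1 KO (0.090), all uncalled. That pair left out gave 5560 genes and 19 list genes called in Spns1 KO. The 2-group fit gave 1040 genes between the models, against 2447. Libraries with the same replicate number did not deviate together (r from -0.30 to 0.26 over 12 pairs). With that number as a block the member calls came to 3 and 4 as before, and Inpp5b in Spns1 KO was -0.063. The block with the trend removed gave 1 member in Spns1 KO and 1 in FeO, 1413 and 4469 genes, 6 list genes in Spns1 KO, and 0.065 for Pi4ka. WT 5 has a number of its own and adds nothing under the block. Leaving out 1 library gave 2035 to 5680 genes (the most without Spns1 KO 4) and 5 to 18 list genes in Spns1 KO, 1 to 4 members in FeO (the fewest without FeO 4), and 1181 to 3087 genes (without FeO 1 and FeO 2) and 0 to 1 members between the models. Log2 fold changes then ran from -0.041 to 0.064 for Inpp5b in Spns1 KO, -0.053 to 0.19 for Ocrl in FeO, and -0.21 to 0.066 for Pi4kb and -0.16 to 0.028 for Pi4k2b between the models. The causes were not tested. Depth limits Pip5k1b most, at 142 to 603 counts a library.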
